A study of Gallus gallus with 6 samples.

Results

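LIM homeodomain proteins are transcription factors that pair a DNA-binding homeodomain with a pair of zinc-binding LIM domains, through which they join the adaptor Ldb1 and each other. In the developing spinal cord, combinations of them mark classes of newborn neurons. Isl1, Isl2, Lhx3 and Lhx4 act in motor neurons together with the homeodomain factor Mnx1 (Hb9), Lhx3 and Lhx4 also act in V2 interneurons, and Lhx1, Lhx2, Lhx9 and Lmx1b mark interneuron classes. LIM-only proteins such as Lmo4 lack a homeodomain and compete for the adaptor. The 10 factors considered were ISL1, ISL2, MNX1, LHX1, LHX2, LHX3, LHX4, LHX9, LMX1B and LMO4, each measured by the probe sets to which the array annotation gives that symbol and no other. LHX4 had no such probe set, so that 9 of the 13009 genes on the array, read by 15 of 38439 probe sets, were followed.

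The values came from GFP+ cells sorted from the spinal part of the neural tube of wild-type White-Leghorn chick embryos at 4 days of incubation. Electroporation took place at embryonic day 3, which left 24 h before the cells were taken, and both groups carried Tubb3:Cre, in which a TUBB3 enhancer and a TK minimal promoter drive Cre recombinase. Control cells (Tubb3::CAG:control) also received the CAG:LoxP·mGFP vector, and TcfEnR cells (Tubb3::CAG:TcfEnR) received the same vector with TcfEnR, the engrailed repressor fused to the HMG box of Tcf3, ahead of membrane GFP. The comparison asked which genes depend on Tcf-driven transcription in differentiating neurons, with 3 arrays per group and a separate pool of embryos behind each array. The sort was meant to keep electroporated cells in which the TUBB3 enhancer was active, and a bulk array cannot tell fewer cells of a type from less RNA per cell.

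All 6 arrays had medians of 6.93 on the log2 scale of robust multi-array average (RMA) signals, and their number limits the precision. Above the median the groups parted, with TcfEnR lower. The lowest 75th percentile of a control was 8.46, and the highest of a TcfEnR array was 8.27. For the 95th percentile the matching values were 10.49 and 10.21. At the 5th percentile TcfEnR was higher, at 3.38 to 3.39 beside 3.24 to 3.30 in control arrays. Counts with a common 75th percentile, a shift that keeps the spread within an array, and with repeated quantile normalization are given below. The labels call the cells post-mitotic neural progenitors, and markers of both neurons and progenitors were bright in the control arrays. The mean log2 signal of 11 measured pan-neuronal markers was 11.10, 10.76 and 10.08 in control replicates 1, 2 and 3, and 8.08 to 8.20 in the TcfEnR arrays. That of 11 progenitor markers was 10.74, 10.89 and 11.26 in the same control arrays, and 9.32 to 9.64 in the TcfEnR arrays. Control replicate 3 was therefore the lowest control for neuronal markers and the highest for progenitor markers. Results of the 9 factors that rest on it are given with and without it, and those of other genes only with it.

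Most of these factors were lower in TcfEnR cells. Of the 9 genes, each read by its brightest probe set, 7 fell and none rose in limma at an adjusted p of 0.05, when 32.6% of all genes fell and 25.0% rose. None rose at an unadjusted p of 0.05 either. That split of all genes depended on scaling, and was 23.4% lower and 34.8% higher with a common 75th percentile, where 6 of the 9 factors fell and none rose. Of the 7, 4 fell by more than 4-fold, a change shown by 3.46% of all genes. The 4 were ISL1, MNX1, LMX1B and ISL2, with LHX9, LMO4 and LHX3 falling less and LHX1 and LHX2 not passing the test. In 7 of the 9 genes the groups did not overlap, with TcfEnR lower. Over all genes this held for 37.3% with TcfEnR lower, and for 66.0% in either direction. The median log2 fold change was −1.59 over the 9 genes and −0.09 over all genes. Counted by probe set, 13 of 15 fell, against 26.2% of all probe sets, and no probe set of the 3 genes with several went against the others.

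**Figure D1:**
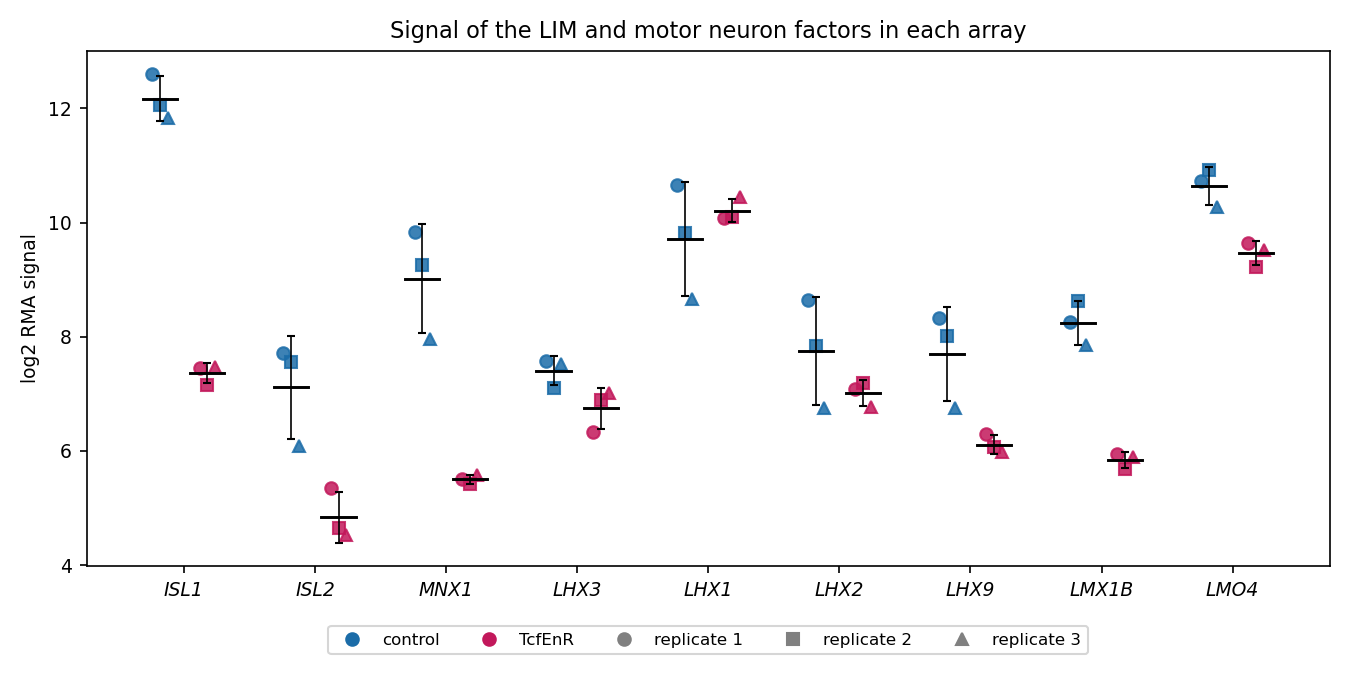
Log2 RMA signal (y axis) of the 9 measured factors (x axis) in the 3 control arrays (blue) and the 3 TcfEnR arrays (magenta), with marker shapes for replicate numbers, bars for group means and error bars for the SD. The groups lie apart in 7 genes with TcfEnR lower, most widely in ISL1, and overlap in LHX1 and LHX2. Over all genes, 37.3% lie apart with TcfEnR lower and 66.0% in either direction.

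ISL1, which is needed for motor neurons to form and is also made by dI3 interneurons and sensory neurons, showed the deepest fall of the group. Its log2 signal was 12.60, 12.06 and 11.83 in control replicates 1, 2 and 3, and 7.45, 7.16 and 7.48 in the TcfEnR arrays. The lowest control array thus lay 4.35 above the highest TcfEnR array, whereas arrays of a group differed by at most 0.77. ISL1 changed by −4.80 on the log2 scale (SE 0.20; adjusted p = 2.46e-06, limma), which is 27.9-fold on the array scale and the second deepest fall among the 13009 genes. A separate ISL1 probe set was at 12.43, 12.31 and 11.68 in control arrays and at 7.32, 6.15 and 6.67 in TcfEnR arrays. It changed by −5.43 (95% interval −6.10 to −4.75), and its interval overlapped that of the brighter probe set, −5.26 to −4.34.

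MNX1, a homeodomain factor without LIM domains that holds motor neurons to their fate by repressing interneuron genes, came next. Its log2 signal was 9.84, 9.26 and 7.97 in control replicates 1, 2 and 3, and 5.50, 5.42 and 5.58 in the TcfEnR arrays. The TcfEnR arrays agreed within 0.16, whereas the controls were spread over 1.87, with replicate 3 at the bottom. On the log2 scale MNX1 changed by −3.52 (SE 0.39; adjusted p = 0.000119, limma), and by −4.05 without control replicate 3. Among all genes, its fall had rank 40.

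ISL2, a close relative of ISL1 that comes on later in motor neurons, was dimmer. It was read at 7.72, 7.56 and 6.08 in control replicates 1, 2 and 3, and at 5.35, 4.64 and 4.53 in the TcfEnR arrays. Control replicate 3 was well below the other controls, and 0.73 above the highest TcfEnR array. ISL2 changed by −2.28 on the log2 scale (SE 0.41; adjusted p = 0.00158, limma), and by −2.80 without control replicate 3. It dropped inside the 4-fold threshold without control replicate 1, at −1.98.

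LHX3, which directs motor neurons together with Isl1 and V2 interneurons without it, moved far less than its partners. Its log2 signal was 7.58, 7.11 and 7.52 in control arrays and 6.33, 6.90 and 7.01 in TcfEnR arrays. The groups did not overlap, but a gap of 0.10 was all that separated them. LHX3 changed by −0.66 on the log2 scale (SE 0.21; adjusted p = 0.0252, limma). This call ended without control replicate 1 (adjusted p = 0.0667), without TcfEnR replicate 1 (adjusted p = 0.0873) and with the arrays shifted to a common 75th percentile (adjusted p = 0.0873).

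**Figure D2:**
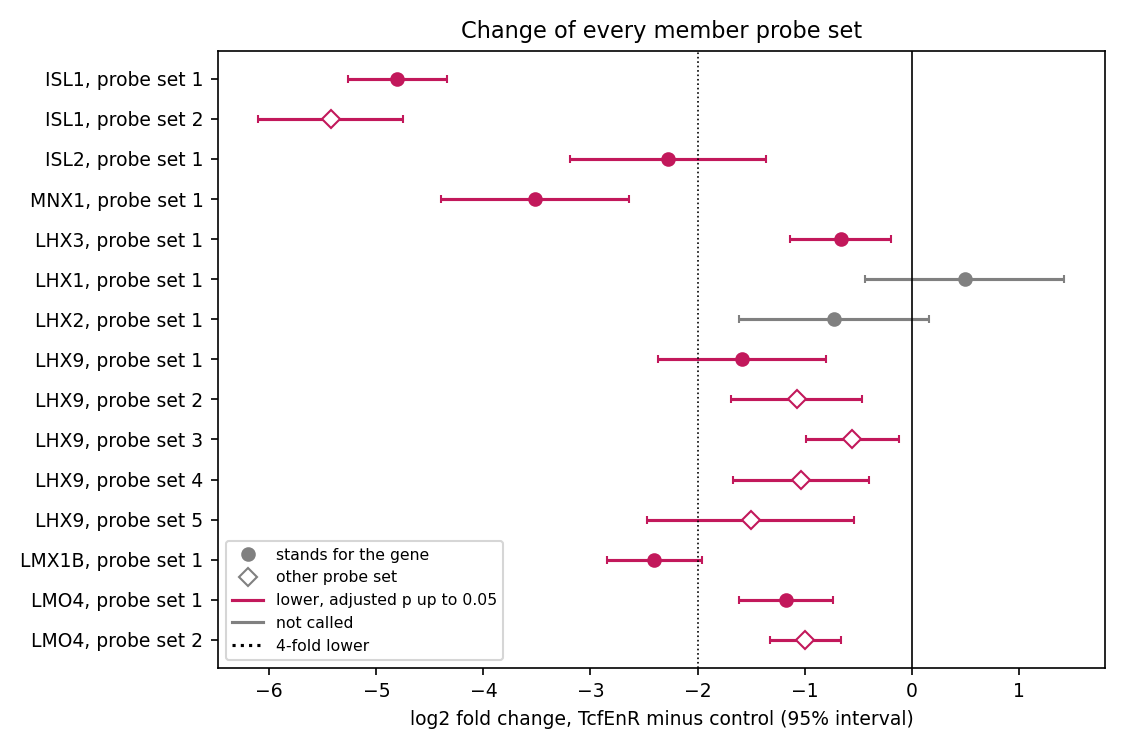
Log2 fold change, TcfEnR minus control (x axis), of the 15 probe sets (y axis, brightest first within a gene), with 95% intervals from limma. Magenta marks the 13 probe sets lower at an adjusted p of 0.05, grey the LHX1 and LHX2 probe sets, filled circles the probe set that stands for a gene, and the dotted line a 4-fold fall. Both ISL1 probe sets and MNX1 pass that line with their whole interval.

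Factors of interneurons differed among themselves. LMX1B, which specifies dI5 interneurons of the dorsal cord, was at 8.26, 8.62 and 7.86 in control arrays and at 5.94, 5.68 and 5.90 in TcfEnR arrays. The groups lay 1.92 apart, and LMX1B changed by −2.40 on the log2 scale (SE 0.20; adjusted p = 2.47e-05, limma). Its control arrays were spread over 0.76, and it remained past 4-fold when any one array was left out.

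LHX9 and LHX2 are made together in dI1 interneurons, a dorsal class with many commissural axons. LHX9 was at 8.32, 8.01 and 6.76 in control replicates 1, 2 and 3, and at 6.29, 6.06 and 5.98 in the TcfEnR arrays. Its log2 signal changed by −1.59 (SE 0.35; adjusted p = 0.00453, limma), and by −2.06 without control replicate 3, the lowest control array. The other 4 LHX9 probe sets fell as well, with log2 fold changes of −1.51 to −0.55, and in each of the 5, which share a target, the groups did not overlap, as in 30.2% of all probe sets with TcfEnR lower. The dimmest was at 2.53 to 2.76 in TcfEnR arrays, below 3.37, the 5th percentile of the mean signal, so that the size of its fall is uncertain.

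LHX2 was at 8.64, 7.84 and 6.75 in control replicates 1, 2 and 3, and at 7.09, 7.20 and 6.77 in the TcfEnR arrays. Control replicate 3 lay just below the lowest TcfEnR array, and the other controls lay above the highest. Its change of −0.73 on the log2 scale (95% interval −1.62 to 0.16; adjusted p = 0.147, limma) did not pass the test, and became −1.22 (adjusted p = 0.00204) without control replicate 3. Whether LHX2 and LHX9 changed to different degrees was not tested.

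LHX1, made by several interneuron classes and by the lateral motor neurons that innervate the dorsal limb, was the one measured factor whose mean was higher in TcfEnR cells. It was at 10.66, 9.81 and 8.67 in control replicates 1, 2 and 3, and at 10.09, 10.09 and 10.45 in the TcfEnR arrays. All TcfEnR arrays thus lay inside the range of the controls, which spanned 1.99. LHX1 changed by 0.50 on the log2 scale (95% interval −0.43 to 1.43; adjusted p = 0.335, limma), an interval that leaves room for a small fall or a larger rise. Its sign rested on control replicate 3, since without that array it was −0.027 (adjusted p = 0.933), and without control replicate 1 it was 0.97 (adjusted p = 0.0259).

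LMO4, the LIM-only member, was bright in both groups and fell moderately. Its brighter probe set was at 10.73, 10.92 and 10.27 in control arrays and at 9.65, 9.23 and 9.52 in TcfEnR arrays. The groups lay 0.63 apart, and the change was −1.17 on the log2 scale (SE 0.19; adjusted p = 0.00103, limma). The other LMO4 probe set gave −0.99 (SE 0.14; adjusted p = 0.00054, limma), within the 95% interval of the brighter one, −1.61 to −0.74.

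The spread of these genes among control pools was itself shared. Control replicate 3 was the lowest control array for 8 of the 9 genes, all but LHX3, and for 30.5% of all genes. Its deviations from the control mean ranged from 0.12 for LHX3 to −1.05 for MNX1, with ISL2, LHX1, LHX2 and LHX9 at −1.04, −1.05, −0.99 and −0.94. Control replicate 1 was the highest for 7 of the 9, and the share of all genes for which this held was not computed. In TcfEnR arrays the same genes deviated by at most 0.51 (ISL2), and no array was the lowest for more than 4 of them. The mean of the pan-neuronal markers was likewise highest in control replicate 1, at 11.10, and lowest in control replicate 3, at 10.08. Mesenchyme markers also varied, with a mean log2 signal over 13 genes of 7.48, 8.50 and 6.49 in control replicates 1, 2 and 3. The part of cell composition in the spread of the factors was not tested.

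**Figure D3:**
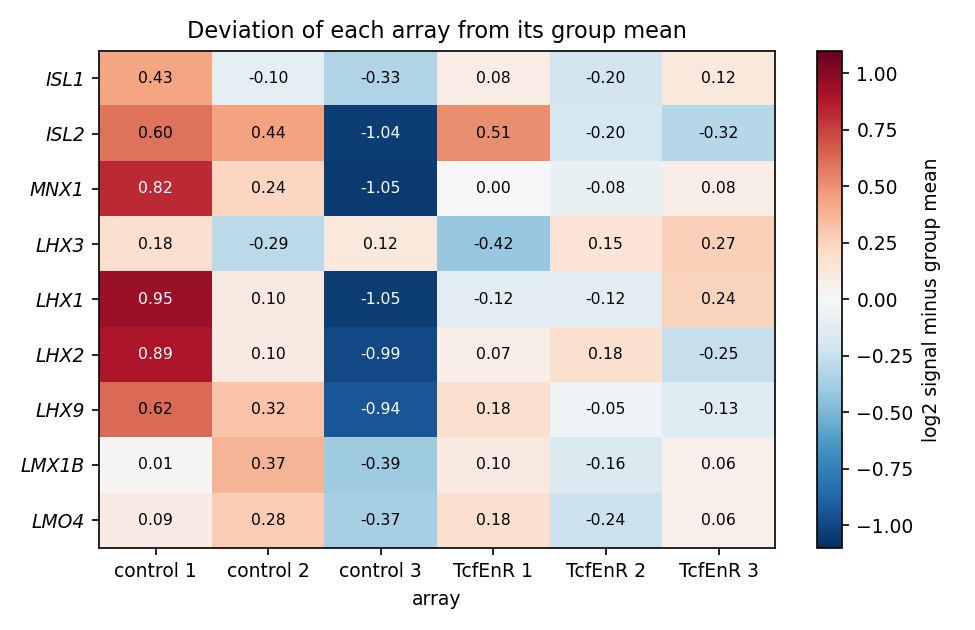
Deviation of each array (x axis) from the mean of its own group, in log2 signal units (colour and printed values), for the 9 genes (y axis). Control replicate 3 is the lowest control array in 8 rows, and the TcfEnR arrays stay within 0.51 of their mean.

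The changes were also set beside the level of the genes, because probe sets that were bright in control arrays often fell. Sorting by control mean itself favours falls, since the fold change subtracts that mean, so the shares below are description only. Among the brightest 20% of genes by control mean, 54.8% fell and 7.38% fell past 4-fold, and in the next 20% the shares were 48.2% and 5.27%. ISL1, LMO4 and LHX1 belonged to the first class and MNX1 to the second. Of these 4 genes 3 fell, and ISL1 and MNX1 passed 4-fold. ISL2, LMX1B, LHX9, LHX2 and LHX3 were dimmer than both classes, and no shares were computed at their level. Among them are LMX1B and ISL2, which also passed 4-fold.

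**Figure D4:**
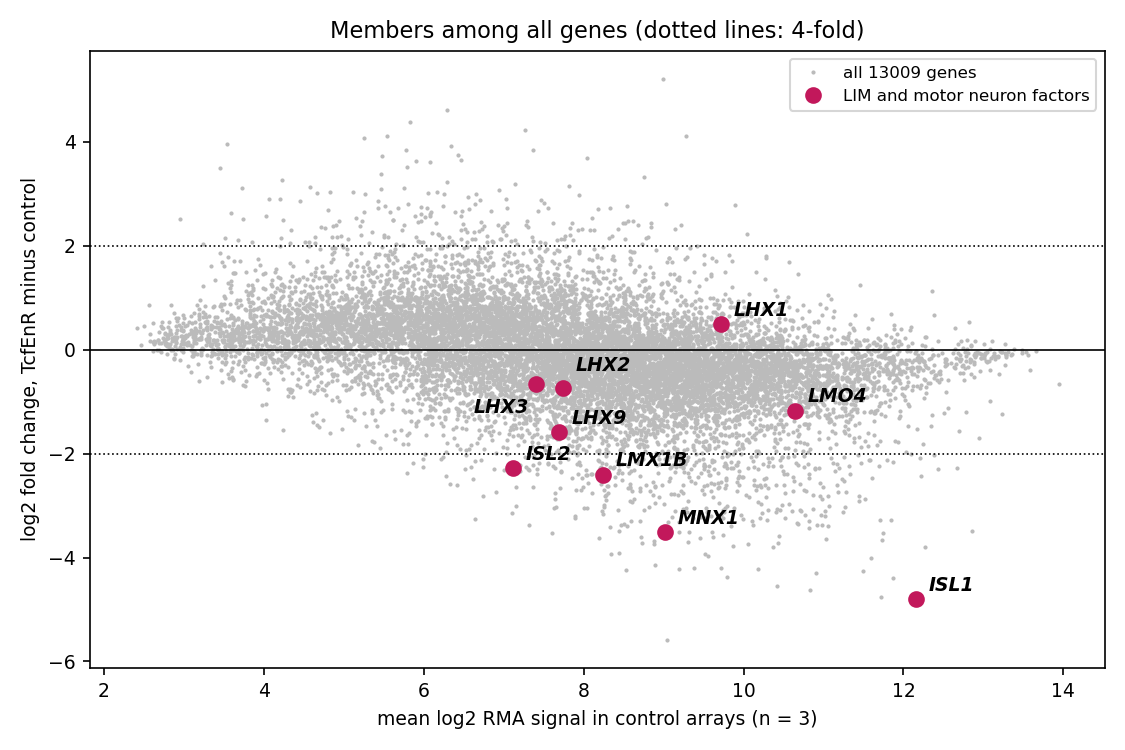
Log2 fold change (y axis) against the mean log2 signal in control arrays (x axis) for 13009 genes (grey) and the 9 factors (magenta). ISL1 lies at the lower right edge of the cloud at −4.80, MNX1 at −3.52, and LHX3, LHX2 and LHX1 lie within its bulk.

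Genes linked to motor neurons and their progenitors were counted from lists drawn up by hand with earlier results of these data known. Some of these genes also act in other cells. The lists here and below share some measured genes, so their counts are not separate. PAX6 and SOX9 were counted again among the neural progenitor markers. FOXD3 was counted as a dorsal interneuron factor and a crest marker, and LMO2 as a LIM relative and a blood marker. Over all genes, 32.6% fell and 25.0% rose. Progenitor factors that precede motor neurons were mostly lower, with 5 of 6 measured genes falling and none rising and a median log2 fold change of −1.41. The homeobox gene NKX6-2 changed most, by −3.27 (SE 0.15), ahead of NKX6-1 with −1.77 (SE 0.16) and the proneural gene NEUROG2 with −1.54 (SE 0.19). Of 13 factors of motor neuron differentiation and of motor columns, 10 fell and 1 rose, with a median of −1.42. Log2 fold changes were −3.18 (SE 0.32) for EBF3, −3.07 (SE 0.18) for TSHZ1 and −2.75 (SE 0.22) for MECOM. The gene that rose was TBX20, a marker of hindbrain motor neurons, picked out after its values were seen. It was dim on these arrays, at 3.61 in control and 4.13 in TcfEnR cells.

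The list of motor neuron transmitter and effector genes holds cholinergic machinery, growth factor receptors and others such as CHODL and AGRN. Its genes had a median of −1.92. Of 12 measured, 9 fell and 2 rose, beside 32.6% and 25.0% of all genes. The log2 of their summed signal overlapped between the groups, at 12.14 to 13.13 in control and 11.98 to 12.19 in TcfEnR arrays. Their mean log2 signal did not, at 7.91 to 9.13 in control and 6.53 to 6.75 in TcfEnR arrays. The choline transporter gene SLC5A7 was at 10.01, 8.61 and 6.72 in control replicates 1, 2 and 3, and at 4.72, 4.24 and 4.61 in the TcfEnR arrays. SLC18A3, which loads acetylcholine into vesicles, was at 10.67, 9.70 and 9.23 in the same control arrays and at 6.03 to 6.14 in TcfEnR arrays. Both had their lowest control value in replicate 3, as did ISL1 and MNX1. GFRA1, which encodes a receptor for GDNF, changed by −3.68 (SE 0.19) and CHODL, a lectin gene of motor neurons, by −3.39 (SE 0.50). The genes that rose were ACHE, encoding acetylcholinesterase, by 0.65 (SE 0.19), and AGRN, encoding the synapse organizer agrin, by 0.83 (SE 0.23), both picked out after their values were seen.

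Of 11 other measured LIM genes and proteins that bind them, 3 fell and 1 rose, beside 32.6% and 25.0% of all genes, and their median was −0.26. The adaptor gene LDB2 was at 8.84, 9.65 and 9.44 in control arrays and at 6.90, 7.12 and 6.79 in TcfEnR arrays, so that it changed by −2.38 on the log2 scale (SE 0.21; adjusted p = 3.67e-05, limma). LDB1, the main adaptor of LIM homeodomain proteins, did not pass the test (−0.32, SE 0.15; adjusted p = 0.0994, limma). The LIM-only genes LMO3 and LMO1 changed by −1.56 (SE 0.15) and −1.26 (SE 0.18) on the log2 scale. LHX6 rose by 0.995 (SE 0.15), from 6.33 to 7.33. LHX5, which is made in the same interneuron classes as LHX1, was at 8.11, 7.45 and 6.62 in control replicates 1, 2 and 3, and at 7.89, 8.19 and 8.61 in TcfEnR arrays. The change of LHX5, 0.84 on the log2 scale (SE 0.34; adjusted p = 0.0639, limma), did not pass the test, and its groups overlapped as those of LHX1 did. LDB1 and LHX5 were picked out after their values were seen.

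Interneuron factors outside the LIM family moved in both directions, as did all genes, of which 32.6% fell and 25.0% rose. Among 6 measured dorsal factors 3 fell and 2 rose, with a median of −0.48. FOXP2 changed by −1.81 (SE 0.20) and PAX2, a marker of inhibitory neurons, by −1.49 (SE 0.25). The homeobox gene TLX1 rose by 2.15 (SE 0.18), from 6.06 to 6.44 in control arrays to 8.17 to 8.72 in TcfEnR arrays. Among 10 ventral factors 3 fell and 2 rose, near the shares over all genes, with a median of −0.02. BHLHE22 was at 11.58 to 11.81 in control arrays and at 8.28 to 8.62 in TcfEnR arrays, and changed by −3.28 (SE 0.14). Between the LIM factors and these lists no difference was tested.

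**Figure D5:**
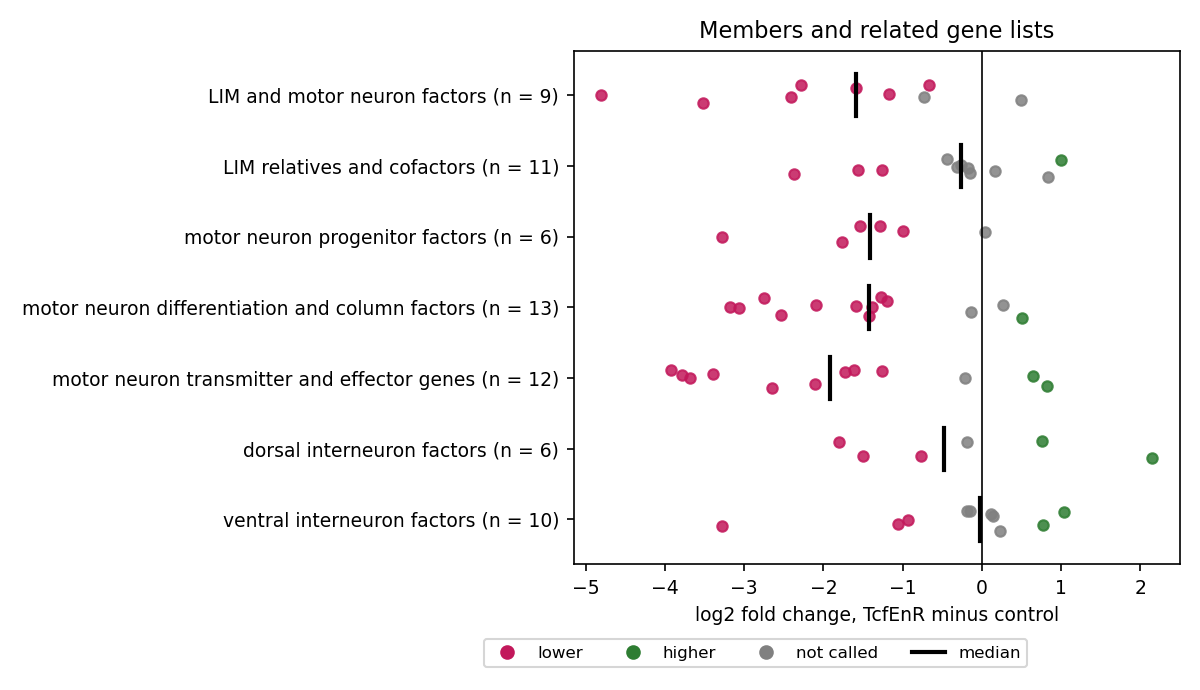
Log2 fold change, TcfEnR minus control (x axis), of the 9 factors and of the genes of 6 related lists (y axis), with points coloured by the call at an adjusted p of 0.05 and black bars for medians. Medians run from −1.92 for motor neuron transmitter and effector genes to −0.02 for ventral interneuron factors.

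Markers of other cells that the sort could hold changed in the same arrays. Their counts stand beside 32.6% of all genes lower and 25.0% higher. Of 6 measured markers of sensory ganglia and neural crest, where ISL1 is also made, 4 fell and 2 rose. The log2 of their summed signal, which the brightest genes of a list dominate, was 11.79 to 12.16 in control and 12.06 to 12.64 in TcfEnR arrays. Their mean log2 signal went the other way, at 8.48 to 8.59 in control and 7.93 to 8.14 in TcfEnR arrays. SOX10, a crest and glial gene, changed by −1.65 (SE 0.20), and the neurotrophin receptor gene NTRK3 by 1.32 (SE 0.36). Of 7 roof plate markers, a second site of LMX1B, 4 fell and 1 rose, and their summed signal was 10.76 to 11.18 in control and 9.94 to 10.16 in TcfEnR arrays. WNT3A changed most among them, by −2.24 (SE 0.14). Of 5 floor plate markers 2 fell and 1 rose. Of 13 genes listed as mesenchyme markers 3 fell, namely PAX3 (−2.61, SE 0.14), COL1A2 and COL3A1, and none rose. Of 9 endothelial markers 1 fell and 2 rose, and of 8 blood markers none fell and 5 rose. The summed signal was 9.98 to 10.46 and 9.80 to 9.97 for floor plate, 11.44 to 13.21 and 11.56 to 11.75 for mesenchyme, 10.03 to 10.63 and 11.23 to 11.28 for endothelium, and 11.38 to 12.07 and 11.90 to 14.25 for blood, in control and TcfEnR arrays, respectively. By mean log2 signal the groups overlapped for endothelium, at 6.36 to 7.26 in control and 6.98 to 7.05 in TcfEnR arrays. They also overlapped for floor plate, at 7.52 to 8.01 and 7.38 to 7.56. The same held for mesenchyme, at 6.49 to 8.50 and 6.23 to 6.80, and for blood, at 7.35 to 7.70 and 7.60 to 9.01. The part of these cells in the changes of the factors was not tested.

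Of the neuronal and progenitor markers named above, 10 of 11 and 9 of 11 fell, beside 32.6% of all genes. Their medians were −2.82 and −1.28, and STMN2 (−4.27, SE 0.39) and FABP7 (−3.66, SE 0.26) changed most. The log2 of the summed signal was 14.43 to 15.34 in control and 12.31 to 12.47 in TcfEnR arrays for neuronal markers, and 14.72 to 15.10 and 13.52 to 13.75 for progenitor markers. Their part in the falls of the LIM factors was not tested either.

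The genes whose pattern over the 6 arrays lay closest to that of ISL1, by the Euclidean distance between log2 values centred on each gene's mean, were ALCAM (0.69), TMEM132C (0.73), ST18 (0.81), TFAP2B (0.82) and PXYLP1 (0.85). Their log2 fold changes ran from −4.55 to −4.21, a size that the choice by distance to ISL1 fixes. TFAP2B, an AP-2 transcription factor gene, was at 10.59, 10.11 and 9.84 in control arrays and at 6.35, 5.68 and 5.87 in TcfEnR arrays.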

How the data were processed

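RNA from sorted GFP+ cells, 1 pool per array, was measured on the GeneChip Chicken Genome Array (Affymetrix). The log2 values that the authors deposited were made with RMA, which corrects background, quantile normalizes arrays processed together and summarises each probe set. The version of that software was not given in the sources used here. Percentiles above the median differed between the groups, as given above. Whether all 6 arrays were processed together, and what part this had in the calls, was not tested. After 96 control probe sets had been set aside, 38439 were tested. The array annotation gave 27168 of them 1 symbol, 177 several and 11094 none. Symbols of the 9 genes were the same in the current RefSeq annotation. A gene with several single-symbol probe sets was read by the one brightest on average in the 6 arrays. No coordinates are given because the values name no genome build.

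TcfEnR minus control was fitted with limma 3.58.1 in R 4.3.3, using lmFit and eBayes. Benjamini-Hochberg adjustment ran over all 38439 tests, 4-fold being a log2 change of 2. SE is the moderated standard error, and p-values measure the spread between pools. The fit was tested on simulated data with independent noise and changes put into 200 of the 38439 probe sets. That setting lacks the wide difference between the groups seen here, so it cannot speak for the calls under such a difference. Genes named were all members with all their probe sets, up to 4 called genes with the largest changes per list, the 5 genes nearest to ISL1, and others where the text says so. Members and lists were chosen with earlier results of these data known. Alternatives covered normalization, scaling, dim probe sets, the variance model, probe set choice, the replicate block and leaving out each array.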

Additional observations from a re-analysis of the deposited data

How the results depend on the processing

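Under 12 alternatives ISL1, ISL2, MNX1, LHX9, LMX1B and LMO4 kept their direction and their call, with adjusted p from limma of 0.0305 at most. The number of genes that fell was 6 to 8 and the number past 4-fold was 3 to 5. The number that rose was 0, except 1 without control replicate 1 (range 0 to 1), which was LHX1. LHX1 ranged from −0.027 to 0.97 with 1 array left out, and LHX3 lost its call in 3 alternatives. The median log2 fold change was −2.06 to −1.27 with 1 array left out, the lowest without control replicate 3, and −1.08 with each gene read by the median of its probe sets, where LHX9 was at −0.55. Quantile normalization repeated moved the median of all genes from −0.09 to 0.03, and a common 75th percentile moved it to 0.12. The shares of all genes lower and higher became 25.1% and 27.5% in the former and 23.4% and 34.8% in the latter, where 7 and 6 of the factors fell and none rose. Replicate numbers are not stated to pair the pools. Deviations of same-numbered arrays correlated at −0.04, 0.02 and −0.06, and those of differently numbered arrays at −0.11 to 0.14. These values cannot decide whether pools were handled together, since deviations also hold differences between single pools. With a replicate block, 7 genes fell and the median was −1.59, and no call changed. With dim probe sets left out, 13 of the 15 probe sets were tested.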

Other observations

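After the values had been seen, each factor was also read relative to the mean log2 signal of the 11 pan-neuronal markers in the same array, which shows unequal change and not a level. Among the 11 is GAP43, which was dim, at 5.25 to 5.66 over the 6 arrays. It changed by 0.20, which makes the fall of the mean smaller. That mean changed by −2.52, so that 95.1% of all genes lay higher relative to it in every TcfEnR array than in any control array, and 0.669% lay lower in the same way. ISL1 was 1.50, 1.30 and 1.75 above that mean in control replicates 1, 2 and 3, and −0.75, −0.92 and −0.61 relative to it in the TcfEnR arrays, a difference of −2.28. MNX1 differed by −0.99. For both the groups did not overlap, and the two-sided exact permutation test gave p = 0.1, the smallest that 3 arrays against 3 allow, so that neither can pass 0.05. Some single markers went further than the mean. STMN2, DCX and NEFL changed by −4.27, −4.01 and −3.64, beside −3.52 for MNX1, a difference that was not tested. The other markers of the 11 fell less than MNX1 or did not fall, from −3.49 for NEFM to 0.20 for GAP43. TUBB3, whose enhancer drove Cre, changed by −1.64 (SE 0.23). GAP43 and TUBB3 were picked out after their values were seen. ISL2 and LMX1B differed from the mean by 0.25 and 0.12, and their groups overlapped. LHX9, LMO4, LHX2, LHX3 and LHX1 differed by 0.94, 1.35, 1.80, 1.86 and 3.02 and lay higher without overlap, as nearly all genes did. For each of them the exact permutation test also gave p = 0.1, so that this value does not set ISL1 and MNX1 apart.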
